A study of Mus musculus with 24 samples.

Results

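Dusp1, Dusp2, Dusp4, Dusp5, Dusp6, Dusp10 and Dusp16 encode 7 of the dual-specificity phosphatases that switch off MAP kinases. They were taken by gene name from a table of read counts for 55434 genes, of which 28481 had at least 1 read. The members were chosen with earlier results of these data known. All 7 were detected and passed the filter on low counts in both fits described here. The table came from RNA-seq of mouse brain cells that had been selected with magnetic beads for CD11b, a surface protein of microglia and other myeloid cells. There were 24 libraries in 8 groups of 3. In 6 groups, microglia of neonatal MRL/lpr mice were kept in culture for 48 h. They then received for 6 h a mixture of all the cytokines used, IFNg (interferon gamma) alone, IFNa (interferon alpha) alone, TNFa (tumour necrosis factor alpha) alone or IL6 (interleukin 6) alone, or were left unstimulated. The remaining groups were untreated microglia of MRL/lpr mice aged 16 weeks and of MRL/MpJ mice of the same age. All neonatal groups, the unstimulated one included, therefore carry the lpr mutation of Fas, on the background of which a lupus-like disease develops. MRL/MpJ is the parental strain without that mutation. Cytokine doses are not in the labels, and nothing there says whether replicates came from separate animals or cultures. The p-values below therefore measure the spread between these libraries, part of which may be technical.

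MAP kinases (ERK, JNK and p38) are switched on by phosphorylation of a threonine and a tyrosine in their activation loop, and MAP kinase phosphatases remove both phosphates. Most genes of the family are themselves induced by the signals that their products end, which makes a negative feedback loop. In mouse macrophages the product of Dusp1 limits the output of inflammatory cytokines. Dusp1, Dusp2, Dusp4 and Dusp5 encode the inducible nuclear enzymes, Dusp6 encodes a cytoplasmic enzyme that acts mainly on ERK, and Dusp10 and Dusp16 encode enzymes that act mainly on JNK and p38.

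The genes lie on 7 different chromosomes. In the mm10 build they span chr17:26505590-26562128 on the minus strand (Dusp1), chr2:127336159-127338376 on the plus strand (Dusp2), chr8:34807297-34819894 on the plus strand (Dusp4) and chr19:53529109-53542431 on the plus strand (Dusp5). Dusp6 spans chr10:99263231-99267489 on the plus strand, Dusp10 spans chr1:184013302-184075636 on the plus strand and Dusp16 spans chr6:134715468-134792625 on the minus strand. Promoters of 6 of the 7 members, all but Dusp4, were matched in RefSeq (build GRCm38.p6). Those of Dusp1 and Dusp10 are shown because these genes stood at opposite ends of the comparison of IFNg with IFNa. Those of Dusp2 and Dusp5 are shown because the levels of these genes followed each other most closely. Each line holds the 250 bases before the RefSeq start, 5′ to 3′ on the strand of the gene, and capitals mark matches to the motifs named after them. The windows are chr17:26508473-26508722 (minus strand), chr1:184034131-184034380 (plus strand), chr2:127335909-127336158 (plus strand) and chr19:53528895-53529144 (plus strand). Those of Dusp1 and Dusp10 lie wholly inside the gene spans above, so the RefSeq start used is not the outer end of the span there.
Dusp1: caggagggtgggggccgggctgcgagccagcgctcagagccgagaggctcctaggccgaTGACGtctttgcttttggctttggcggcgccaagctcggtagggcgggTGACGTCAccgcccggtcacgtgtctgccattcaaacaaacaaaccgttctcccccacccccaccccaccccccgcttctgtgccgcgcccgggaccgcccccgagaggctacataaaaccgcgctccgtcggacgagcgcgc
Dusp10: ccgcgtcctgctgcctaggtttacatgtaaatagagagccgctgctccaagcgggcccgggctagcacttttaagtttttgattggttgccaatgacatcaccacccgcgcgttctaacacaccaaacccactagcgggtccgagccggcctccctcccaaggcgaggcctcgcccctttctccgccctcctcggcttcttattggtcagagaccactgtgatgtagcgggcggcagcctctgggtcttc
Dusp2: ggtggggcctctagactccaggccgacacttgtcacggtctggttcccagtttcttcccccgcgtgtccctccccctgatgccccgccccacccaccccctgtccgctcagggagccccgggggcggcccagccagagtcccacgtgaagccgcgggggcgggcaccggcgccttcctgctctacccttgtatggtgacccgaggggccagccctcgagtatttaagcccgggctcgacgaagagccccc
Dusp5: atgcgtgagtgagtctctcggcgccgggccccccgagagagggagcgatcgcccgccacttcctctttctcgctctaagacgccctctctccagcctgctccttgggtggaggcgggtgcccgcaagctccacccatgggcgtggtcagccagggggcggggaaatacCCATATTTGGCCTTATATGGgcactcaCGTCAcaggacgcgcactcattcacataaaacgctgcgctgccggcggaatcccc

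Letters were searched on both strands of these windows and of the windows of the same length before all 32851 mouse starts listed by RefSeq. The cyclic AMP response element TGACGTCA, which 1.55% of all promoters held, was present once among the members, 143 bases before the start of Dusp1. Its core TGACG, which 17.8% of all promoters held, was found in Dusp1, Dusp5 and Dusp16, and 2 of the 3 matches in Dusp1 lie within the full element. The CArG box, the element bound by serum response factor and held by 1.47% of all promoters, had 2 adjoining matches in Dusp5, at 82 and 72 bases before the start. The interferon gamma activated site TTCNNNGAA (7.02% of all promoters), the interferon-stimulated response element (2.98%), the AP-1 site TGANTCA (6.75%) and the NF-kappaB consensus (3.9%) had 0 matches in the windows of the members other than Dusp4, which had no window. A match is a run of letters and no evidence of binding, and the search did not cover introns or distant enhancers.

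Library totals were 10.08 to 19.32 M (mega) counts. Levels are given as CPM, counts per M counts after TMM scaling, separately for the neonatal and the adult libraries. The microglial markers Tmem119 and P2ry12 averaged 0.848 to 21.4 CPM and 6.27 to 52.7 CPM in the neonatal groups. In the adult groups they averaged 3445 and 5057 CPM in MRL/lpr, and 7561 and 7617 CPM in MRL/MpJ. Csf1r, the receptor gene for a macrophage growth factor, which other macrophages also express, averaged at least 1912 CPM in all 8 groups. The cultured cells thus held this macrophage gene at a high level and the homeostatic microglial markers Tmem119 and P2ry12 at a low one. In bulk RNA such as this, fewer cells of a type and less RNA per cell cannot be told apart. Age, culture and preparation differ together between neonatal and adult groups and cannot be told apart, so levels are set side by side across that line without a test.

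**Figure D1:**
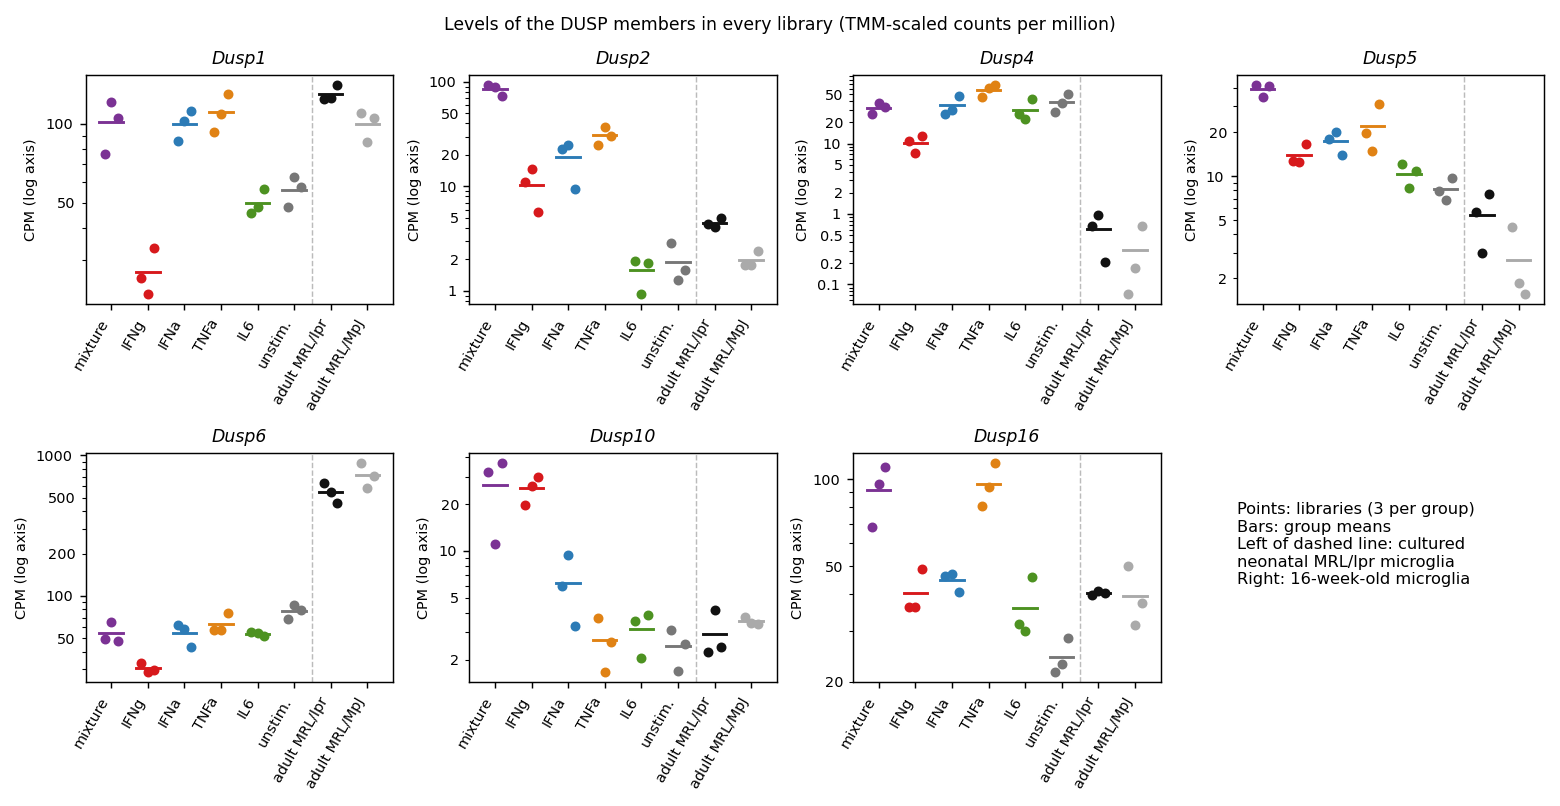
Level of each member in every library, in TMM-scaled CPM on a log axis, with points for libraries and bars for group means (3 libraries per group). Dusp1, Dusp4 and Dusp6 were lowest among the neonatal groups in IFNg (means 27.1, 10.4 and 30.5 CPM), Dusp10 was high in IFNg and in the mixture (25.3 and 26.6 CPM), and Dusp6 stood at 548 and 724 CPM in the adult MRL/lpr and MRL/MpJ groups.

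IFNg and IFNa, type II and type I interferon, left different mRNA levels of 4 of the 7 members after 6 h. With IFNg, Dusp1, Dusp4 and Dusp6 were lower than with IFNa and Dusp10 was higher. Dusp2, Dusp5 and Dusp16 did not pass the test. In edgeR's quasi-likelihood test 4 of the 7 members were called at an adjusted p under 0.05, 3 lower and 1 higher, where 5.17% of all 14626 genes tested were called (2.81% higher and 2.36% lower). Because the members were chosen with earlier results of these data known, their counts beside shares of all genes are descriptions, here and below. The median log2 fold change was -0.84 over the members and 0 over all genes tested. The same fit recorded the difference between the stimuli themselves. Ciita, the master regulator of MHC class II genes and a target of IFNg, had 682 reads with IFNg and 0 with IFNa, a level at least 222-fold higher if 3 counts are taken as the floor of the whole group. Ifit1, a classical gene of the type I response, was lower with IFNg (145.7 ± 42.1 CPM, against 942.2 ± 259 CPM with IFNa; SD, n = 3 each).

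Dusp1 encodes MKP-1, an immediate-early nuclear phosphatase of p38 and JNK whose loss in mouse macrophages raises the output of TNF, IL-6 and IL-10. Its level was 25.6, 22.4 and 33.4 CPM in the 3 IFNg libraries, against 85.7, 102 and 112 CPM in the 3 IFNa libraries. No IFNg library reached the lowest IFNa library. Dusp1 thus fell by 1.88 ± 0.198 on the log2 scale (SE; edgeR adjusted p = 9.64e-05), a level 3.69-fold lower with IFNg. The other neonatal groups placed the gene between or beside these. Dusp1 stood at 76.9, 122 and 106 CPM in the mixture, 93.1, 109 and 130 CPM in TNFa, 45.5, 48.1 and 56.3 CPM in IL6, and 47.9, 62.7 and 57.5 CPM in unstimulated cells. IFNg and IFNa thus stood on opposite sides of the unstimulated level, and none of the libraries of the 3 groups overlapped. Against unstimulated cells Dusp1 fell with IFNg (log2 fold change -1.05 ± 0.195, edgeR adjusted p = 0.00159) and rose with IFNa (0.84 ± 0.192, edgeR adjusted p = 0.00639). These fold changes share the unstimulated libraries. The annotated far end of Dusp1 overlaps Ergic1 on the opposite strand over chr17:26561489-26562128. The strand setting of the counting is not given in the sources used here. Ergic1 had 140 ± 13.5 CPM with IFNg and 150.7 ± 23.6 CPM with IFNa (SD, n = 3 each; log2 fold change -0.11, edgeR adjusted p = 0.888).

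Dusp4 encodes MKP-2, a nuclear phosphatase of ERK, JNK and p38. It had 10.9, 7.42 and 12.7 CPM in IFNg, against 26.7, 30.1 and 47.9 CPM in IFNa. The groups did not overlap, and Dusp4 fell by 1.75 ± 0.304 on the log2 scale (edgeR adjusted p = 0.00291). It had 26.2, 37.1 and 33.1 CPM in the mixture, 45.3, 61.4 and 68.0 CPM in TNFa, 26.1, 22.7 and 42.5 CPM in IL6, and 28.0, 37.7 and 50.6 CPM in unstimulated cells. Every IFNg library was below every other neonatal library for this gene. Against unstimulated cells Dusp4 fell with IFNg (-1.90 ± 0.305, edgeR adjusted p = 0.000483), and its value with IFNa was -0.15 ± 0.29 (edgeR adjusted p = 0.852).

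Dusp6 encodes MKP-3, the cytoplasmic phosphatase that binds ERK and whose own transcription depends on ERK activity in many cell types. It had 33.2, 28.8 and 29.5 CPM in IFNg, against 62.4, 58.4 and 43.3 CPM in IFNa. The groups did not overlap, and the gene fell by 0.84 ± 0.161 on the log2 scale (edgeR adjusted p = 0.00564). It had 49.2, 65.2 and 47.9 CPM in the mixture, 57.5, 57.5 and 74.96 CPM in TNFa, 54.9, 54.5 and 51.8 CPM in IL6, and 68.8, 85.9 and 79.7 CPM in unstimulated cells. The unstimulated mean was the highest of the neonatal groups. Dusp6 fell with IFNg (-1.36 ± 0.163, edgeR adjusted p = 3.43e-05) and with IFNa (-0.51 ± 0.16, edgeR adjusted p = 0.0403) against unstimulated cells.

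Dusp10 encodes MKP-5, which acts on JNK and p38 and spares ERK. It had 19.7, 26.3 and 30.0 CPM in IFNg, against 5.98, 9.45 and 3.30 CPM in IFNa. Its lowest IFNg library exceeded the highest IFNa library, and the gene was higher by 2.02 ± 0.447 on the log2 scale, or 4.05-fold (edgeR adjusted p = 0.0149). It had 32.02, 11.1 and 36.5 CPM in the mixture, 3.71, 1.68 and 2.62 CPM in TNFa, 3.54, 2.07 and 3.86 CPM in IL6, and 3.099, 1.69 and 2.53 CPM in unstimulated cells. The gene was thus low without IFNg and high in all 3 IFNg libraries and in 2 of the 3 mixture libraries, with mixture replicate 2 nearer to the highest IFNa library. Against unstimulated cells Dusp10 rose 10.4-fold with IFNg (3.37 ± 0.478, edgeR adjusted p = 0.000166). Its value with IFNa was 1.36 ± 0.457 (edgeR adjusted p = 0.0601, and 0.0378 with the replicate number as a block or 0.0238 in DESeq2). The call in IFNg against IFNa was lost without IFNa replicate 1 (adjusted p = 0.0636), IFNa replicate 3 (0.0608), IFNg replicate 2 (0.0543) or IFNg replicate 3 (0.0555), at log2 fold changes of 1.72 to 1.99.

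The other 3 members stood at overlapping levels under both interferons. Dusp2 encodes PAC-1, a nuclear phosphatase first described in activated lymphocytes. It had 10.96, 14.6 and 5.69 CPM in IFNg, against 22.6, 24.8 and 9.39 CPM in IFNa (log2 fold change -0.86 ± 0.374, edgeR adjusted p = 0.257). Replicate 3 was the lowest in both groups. Dusp5 encodes a nuclear phosphatase selective for ERK, and it had 12.7, 12.5 and 16.6 CPM in IFNg against 17.9, 20.2 and 13.9 CPM in IFNa (-0.31 ± 0.241, edgeR adjusted p = 0.63). Dusp16 encodes MKP-7, a phosphatase that prefers JNK and p38, and it had 36.3, 36.2 and 49.0 CPM in IFNg against 46.5, 47.0 and 40.8 CPM in IFNa (-0.14 ± 0.204, edgeR adjusted p = 0.858). A p above the threshold does not show that these levels are the same.

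**Figure D2:**
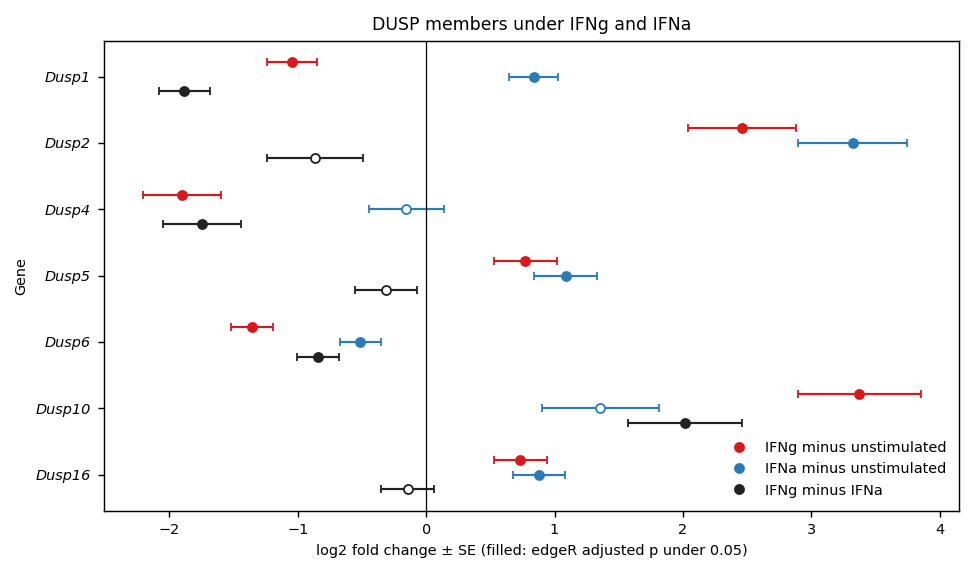
log2 fold change ± SE of each member for IFNg minus unstimulated, IFNa minus unstimulated and IFNg minus IFNa, with filled points for an edgeR adjusted p under 0.05. Dusp1 lies left of 0 for IFNg and right of 0 for IFNa (-1.05 and 0.84), Dusp10 reaches 3.37 with IFNg, and Dusp5 and Dusp16 lie right of 0 under both interferons.

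Markers of other cell types were set beside these values. The summed level of 5 endothelial markers was 55.5 to 92.4 CPM in IFNg and 171 to 212 CPM in IFNa, and 1 of them (Flt1) was called lower. The sum of 7 markers of border macrophages was 358 to 390 CPM in IFNg and 255 to 291 CPM in IFNa, and 1 of 6 tested (Mrc1) was called higher. The sum of 8 microglial markers was 5580 to 6970 CPM in IFNg and 5150 to 5840 CPM in IFNa, and 1 of them (Cx3cr1) was called lower. The 5 astrocyte markers summed to 35.2 to 273 CPM in IFNg and 20.8 to 276 CPM in IFNa, with 0 called. T and NK cell markers were at most 1.85 CPM in sum in IFNg and 0.77 CPM in IFNa, with Cd8a, Ncr1, Klrb1c and Gzma at 0 in both. Their part in the result was not tested.

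Each single cytokine was next compared with unstimulated cells, which all of these comparisons share. IFNg changed all 7 members (median log2 fold change 0.73, against -0.02 over all genes tested), where 8.57% of all genes tested were called higher and 4.32% lower. Dusp10, Dusp2, Dusp5 and Dusp16 rose, and Dusp1, Dusp4 and Dusp6 fell. Dusp2 was well above the unstimulated level (log2 fold change 2.46 ± 0.42, edgeR adjusted p = 0.000865), with 2.84, 1.27 and 1.58 CPM in the unstimulated libraries. The rises of Dusp5 (0.77 ± 0.245, edgeR adjusted p = 0.0487) and Dusp16 (0.73 ± 0.206, edgeR adjusted p = 0.0255) were the smallest. Dusp5 had 7.88, 6.88 and 9.67 CPM in unstimulated cells and Dusp16 had 21.6, 23.1 and 28.3 CPM, and neither group overlapped with IFNg. The Dusp5 call remained in 3 of 13 alternative settings, with adjusted p up to 0.209. Of the left-out libraries, IFNg replicates 1, 2 and 3 (0.0715, 0.078 and 0.209) and unstimulated replicates 1 and 2 (0.139 and 0.191) ended it. That of Dusp16 remained in 10 of 13 and was lost without IFNg replicate 3 (0.14), unstimulated replicate 1 (0.111) or unstimulated replicate 2 (0.0994).

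IFNa changed 5 members (median 0.88, against -0.04 over all genes tested), where 9.41% of all genes tested were called higher and 5.07% lower. Dusp2 rose 10.0-fold (3.32 ± 0.425, edgeR adjusted p = 6.85e-05), Dusp5 2.13-fold (1.09 ± 0.246, edgeR adjusted p = 0.00577), Dusp16 1.84-fold (0.88 ± 0.206, edgeR adjusted p = 0.0074) and Dusp1 1.79-fold. Dusp6 fell. The Dusp6 call was lost without IFNa replicate 2 (adjusted p = 0.0757), IFNa replicate 3 (0.174), unstimulated replicate 2 (0.167) or unstimulated replicate 3 (0.103), and in a fit of only the 2 groups (0.0711). Dusp10 passed the threshold without IFNa replicate 3, its lowest IFNa library (1.66, adjusted p = 0.024).

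TNFa raised 4 members, the nuclear Dusp1, Dusp2 and Dusp5 and the JNK and p38 phosphatase gene Dusp16. The median was 0.98, against -0.02 over all genes tested, and the 4 calls were all higher, where 4.38% of all genes tested were called higher and 3.72% lower. Dusp2 had 24.7, 37.2 and 30.6 CPM with TNFa, above all unstimulated libraries (4.03 ± 0.432, edgeR adjusted p = 1.52e-05). Dusp16 had 80.8, 94.3 and 113 CPM, 3.95-fold the unstimulated level (1.98 ± 0.21, edgeR adjusted p = 1.1e-05), the highest of its 8 group means beside 91.5 CPM in the mixture. Dusp5 had 19.7, 14.95 and 31.0 CPM (1.43 ± 0.246, edgeR adjusted p = 0.00111), and Dusp1 rose by 0.98 ± 0.192 (edgeR adjusted p = 0.00322). None of these TNFa libraries overlapped with unstimulated cells. The values of Dusp4 (0.59 ± 0.29, edgeR adjusted p = 0.304, and 0.0228 with the replicate block), Dusp6 (-0.30 ± 0.159, edgeR adjusted p = 0.341) and Dusp10 (0.14 ± 0.459, edgeR adjusted p = 0.957) did not pass.

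IL6 gave 0 calls among the members in edgeR and 0 in DESeq2, where 0.978% of all genes tested were called and 1397 genes had an unadjusted p under 0.05. Of the members 2, Dusp6 and Dusp16, had an unadjusted p under 0.05 (0.00384 and 0.0154). After adjustment neither Dusp16 (log2 fold change 0.56 ± 0.205, edgeR adjusted p = 0.32) nor Dusp6 (-0.54 ± 0.16, edgeR adjusted p = 0.175) passed. Dusp16 had 31.6, 29.8 and 45.9 CPM with IL6, and its groups did not overlap, nor did those of Dusp6. With the replicate number as a block both were called (adjusted p = 0.0296 for Dusp16 and 0.0433 for Dusp6). Dusp2 had 1.92, 0.940 and 1.84 CPM with IL6 and Dusp5 had 12.1, 8.27 and 10.8 CPM, and both overlapped with unstimulated cells.

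The mixture of all cytokines gave the highest level of Dusp2 and Dusp5 in the series. Dusp2 had 93.5, 88.5 and 72.7 CPM with the mixture, 44.9-fold the unstimulated level (5.49 ± 0.454, edgeR adjusted p = 2.85e-07). Dusp5 had 42.0, 34.6 and 41.1 CPM (2.27 ± 0.251, edgeR adjusted p = 4.1e-06) and Dusp16 had 68.6, 96.0 and 110 CPM (1.91 ± 0.21, edgeR adjusted p = 3.7e-06). In all, 5 members rose against unstimulated cells and 1 fell (median 1.91, against -0.05 over all genes tested), where 15.7% of all genes tested were called higher and 16.4% lower. Dusp10 (3.44 ± 0.479, edgeR adjusted p = 3.99e-05) and Dusp1 (0.85 ± 0.192, edgeR adjusted p = 0.00255) also rose, and Dusp6 fell (-0.53 ± 0.16, edgeR adjusted p = 0.0171). The Dusp6 call was lost without mixture replicate 1 (0.0896), mixture replicate 3 (0.104) or unstimulated replicate 2 (0.0766). Dusp4 did not pass (-0.27 ± 0.291, edgeR adjusted p = 0.561). With library totals in place of TMM the median of all genes moved from -0.05 to -0.47, and Dusp4 stood at -0.67 (adjusted p = 0.0391).

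Other lists moved beside the members in these comparisons with unstimulated cells. Of 15 immediate-early and heat shock genes, 8 rose and 1 fell in the mixture, 6 rose and 1 fell with IFNg, 5 rose with IFNa, 3 rose and 2 fell with TNFa and 1 rose with IL6. Their sum was 2990 to 3530 CPM in the mixture, 2080 to 2170 CPM in IFNg, 2020 to 2240 CPM in IFNa, 1510 to 1820 CPM in TNFa and 1270 to 1460 CPM in IL6, against 1070 to 1340 CPM in unstimulated cells. Junb, an AP-1 subunit gene, rose by 2.51 in the mixture (edgeR adjusted p = 5.74e-08). The 5 endothelial markers summed to 156 to 214 CPM in the mixture, 55.5 to 92.4 CPM in IFNg, 171 to 212 CPM in IFNa, 20 to 50.1 CPM in TNFa and 45.1 to 108 CPM in IL6, against 21 to 53.2 CPM in unstimulated cells. Of them Flt1 and Kdr were called higher in the mixture and with IFNa, and Flt1 with IFNg, while Cldn5, Pecam1 and Cdh5 did not pass in these comparisons. The part of these genes in the results was not tested.

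Set against each cytokine alone, the mixture differed from IFNg in 6 members, all higher, where 6.45% of all genes tested were called higher and 7.83% lower. Dusp1 (1.90 ± 0.198, edgeR adjusted p = 2.29e-05), Dusp4 (1.63 ± 0.303, edgeR adjusted p = 0.00189) and Dusp6 (0.83 ± 0.162, edgeR adjusted p = 0.00261), the members that fell with IFNg, were among them. Dusp10 was the member that did not pass, at 0.07 ± 0.427 (edgeR adjusted p = 0.959). Against IFNa 4 members were higher in the mixture, where 4.16% of all genes were called higher and 3.78% lower, namely Dusp2, Dusp5, Dusp10 and Dusp16. The Dusp10 call was lost in a fit of only the 2 groups compared (2.09, adjusted p = 0.0954). Library totals gave 448 genes called higher and 1939 lower (608 and 553 with TMM). For Dusp1, Dusp4 and Dusp6 the mixture and IFNa overlapped, with log2 fold changes of 0.02, -0.12 and -0.02. Against TNFa 3 members were higher and Dusp4 was lower, where 12.6% of all genes were called higher and 12.6% lower. Dusp2 (1.46 ± 0.368, edgeR adjusted p = 0.00763), Dusp5 (0.84 ± 0.239, edgeR adjusted p = 0.0156) and Dusp10 (3.30 ± 0.474, edgeR adjusted p = 8.58e-05) were the higher ones, and Dusp16 overlapped (-0.07 ± 0.201). With library totals in place of TMM, 1332 of all genes were called higher and 4184 lower (1839 and 1845 with TMM), the median of all genes being -0.36. Dusp1 (-0.47, adjusted p = 0.0212) and Dusp6 (-0.56, adjusted p = 0.0176) were then called lower too, and Dusp5 did not pass (0.52, adjusted p = 0.112). The lower Dusp4 (-0.86 ± 0.292, edgeR adjusted p = 0.0415) remained called in 6 of 13 settings. It was lost without mixture replicate 1 (0.141), 2 (0.0582) or 3 (0.0864) and without TNFa replicate 2 (0.107) or 3 (0.134). Dusp5 against TNFa remained called in 9 of 13 settings, and the others were library totals, a fit of only the 2 groups compared (0.0627) and those without TNFa replicate 1 (0.0668) or 2 (0.088). Against IL6 5 members were higher, where 13.8% of all genes were called higher, and Dusp4 and Dusp6 were at 0.08 and 0.01.

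**Figure D3:**
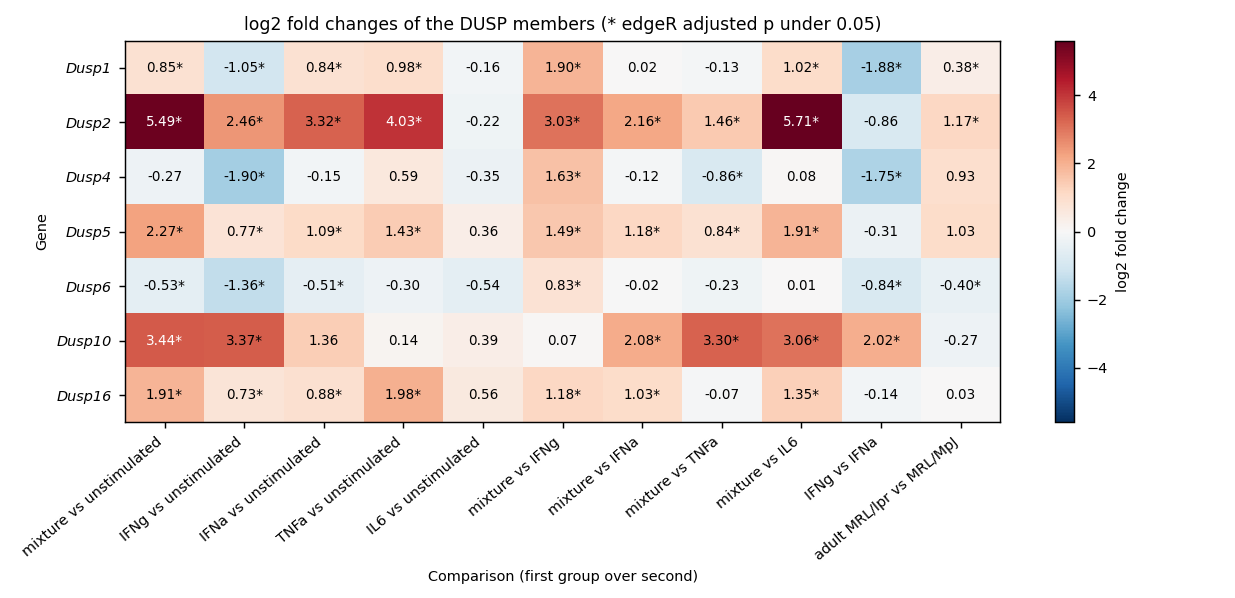
log2 fold changes of the 7 members in 11 comparisons, written in the cells and shown by colour, with an asterisk for an edgeR adjusted p under 0.05. The Dusp2 row holds the largest values (5.71 for the mixture against IL6 and 5.49 for the mixture against unstimulated cells). The column of IL6 against unstimulated cells has no asterisk, and the Dusp10 cell for the mixture against IFNg is 0.07.

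The mixture was also compared with what adding the log2 fold changes of the 4 cytokines would give, and 0.533% of all genes tested were called above that sum and 1.14% below it. Dusp6 was above the sum by 2.18 ± 0.41 (edgeR adjusted p = 0.0106). Its single values were -1.36 with IFNg, -0.51 with IFNa, -0.30 with TNFa and -0.54 with IL6, and its value in the mixture was -0.53. All of these contain the same unstimulated libraries, and the call was lost without unstimulated replicate 2 (1.96, adjusted p = 0.103) or replicate 3 (2.13, adjusted p = 0.0551). Dusp16 was at -2.24 ± 0.559 (edgeR adjusted p = 0.0563, and 0.0012 with the replicate block) and Dusp2 at -4.1 ± 1.16 (edgeR adjusted p = 0.111, and 0.0391 with the block). Dusp16 passed without TNFa replicate 1 (0.0484) or mixture replicate 3 (0.0296), and Dusp2 passed without IFNa replicate 3 (0.0298). The other 4 members had adjusted p of 0.475 or more.

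The order of the 6 neonatal groups differed between members, and most steps between neighbouring groups in it were not called. An uncalled step does not show that the levels are the same. Of 35 steps between neighbours (5 for each member), 9 were called. Some pairs of neighbours belong to no comparison given so far. Among all genes tested, IFNg had 5.73% called higher and 2.62% lower than IL6, IFNa had 9.59% higher and 6.68% lower than TNFa, IFNa had 8.05% higher and 4.94% lower than IL6, and TNFa had 3.71% higher and 3.31% lower than IL6. For Dusp1 the order was IFNg, IL6, unstimulated, IFNa, mixture and TNFa from low to high, with called steps from IFNg to IL6 and from unstimulated to IFNa. For Dusp4 the order was IFNg, IL6, mixture, IFNa, unstimulated and TNFa, and for Dusp6 it was IFNg, IL6, mixture, IFNa, TNFa and unstimulated. In both of these genes the step above IFNg was the called one. For Dusp2 the order was IL6, unstimulated, IFNg, IFNa, TNFa and mixture, with called steps from unstimulated to IFNg and from TNFa to the mixture. Dusp5 ran unstimulated, IL6, IFNg, IFNa, TNFa and mixture, with the last step called. Dusp10 ran unstimulated, TNFa, IL6, IFNa, IFNg and mixture, with the step from IFNa to IFNg called, and Dusp16 ran unstimulated, IL6, IFNg, IFNa, mixture and TNFa, with the step from IFNa to the mixture called. In the pairs of neighbours outside the earlier comparisons, neither the replicate block nor library totals changed the call of a step, a check chosen after seeing the data. These steps were chosen by the order itself and describe it. With library totals in place of TMM the order of means moved in 4 of the 7 members. The mixture then stood below IFNg for Dusp10 (21.97 and 24.55 CPM) and below IFNa for Dusp1 (83.56 and 97.89 CPM). It stood below IL6 for Dusp4 (26.55 and 32.59 CPM) and Dusp6 (44.99 and 58.15 CPM), as did IFNa for Dusp6 (54.03 CPM).

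Levels of different members can be compared per length, as CPM per kilobase of the gene length in the table. The 7 members summed to 138.3 ± 6.86 CPM per kb in the mixture, 112.4 ± 18.26 in TNFa, 84.7 ± 4.79 in IFNa, 54.0 ± 6.70 in IL6, 46.1 ± 3.31 in IFNg and 64.2 ± 8.08 in unstimulated cells (SD, n = 3 each). These sums rest on TMM scaling. With library totals in its place the mean of every member was lower in the mixture (Dusp2 71.1 CPM, against 84.9 with TMM). In TNFa every mean was higher (Dusp2 32.28 CPM, against 30.84 with TMM). The lead of the mixture over TNFa need not hold with library totals. Dusp6 was the leading member in unstimulated cells, with 24.9 ± 2.76 CPM per kb and 39% of the sum. Dusp2 led in the mixture with 42.4 ± 5.40 CPM per kb, 30.7% of the sum, against 0.946 ± 0.416 CPM per kb and 1.55% in unstimulated cells. Dusp10 took 18% of the sum in IFNg, 2.39% in IFNa and 1.29% in unstimulated cells, and Dusp1 took 17.7% in IFNg, 35.8% in IFNa and 26.4% in unstimulated cells. In IFNg the leading members per kb were Dusp6 (9.74 ± 0.754), Dusp10 (8.33 ± 1.72) and Dusp1 (8.196 ± 1.71), whose levels lay within their spread of each other.

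**Figure D4:**
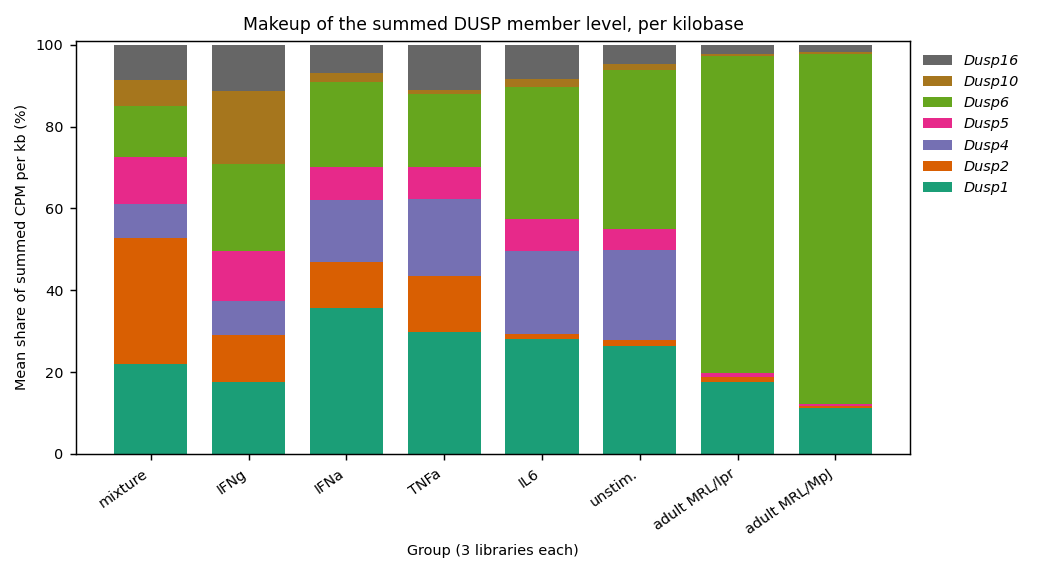
Mean share of each member in the summed CPM per kilobase of the 7 members, in percent, for the 8 groups (3 libraries each). The Dusp10 band is widest in IFNg (18%), the Dusp2 band in the mixture (30.7%), and the Dusp6 band in the adult MRL/lpr and MRL/MpJ groups (77.4% and 85.6%).

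Across the 18 neonatal libraries, which share groups and replicate numbers, the members fell into patterns that are given here as descriptions. Pearson's r of log2 CPM was highest between Dusp2 and Dusp5 (0.899), followed by Dusp5 and Dusp16 (0.865), Dusp1 and Dusp4 (0.836), Dusp2 and Dusp16 (0.831) and Dusp4 and Dusp6 (0.769). It was lowest between Dusp6 and Dusp10 (-0.695) and between Dusp4 and Dusp10 (-0.652). Among 9542 other genes (mean log2 CPM not under 2), those most like Dusp2 were Nfkb1 (0.97), Cited2 (0.96) and Rab12 (0.959). Those most like Dusp10 were Pdgfrl (0.973), Serping1 (0.953) and Ppa1 (0.952). Those most like Dusp16 were Itga5 (0.965), Fpr2 (0.962) and Oaf (0.952). Dusp4 was most like Arhgap31 (0.914), Dusp1 most like Dyrk2 (0.893) and Dusp6 most like Vps72 (0.825), the weakest of the 6 best matches given here.

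Other genes of the pathway were counted from lists that, like the members, were chosen with earlier results of these data known. Their counts are therefore given as descriptions. Between IFNg and IFNa, 0 of the 3 other MAP kinase phosphatases (Dusp7, Dusp8 and Dusp9), 0 of 10 atypical phosphatases and 0 of 5 other MAP kinase phosphatases of the PTP and PPM families were called in edgeR. Their medians were -0.23, 0.09 and 0.11, and Dusp28 (-1.10, edgeR adjusted p = 0.078), Dusp23 (1.79, edgeR adjusted p = 0.0932) and Ptpn7 (0.81, edgeR adjusted p = 0.0992) had unadjusted p under 0.05. The other lists, with medians of 0.01 (kinases), -0.21 (ERK response), 0.15 (p38 axis) and -2.12 (cytokine genes), each had calls. Over all genes tested, 5.17% were called in this comparison. Of 27 kinases of the cascade 1 was called, Map2k1, the kinase MEK1 above ERK, which was lower with IFNg (194.1 ± 20.7 CPM, against 343.4 ± 24.4 CPM in IFNa; log2 fold change -0.82, edgeR adjusted p = 0.00544). Of 15 genes that respond to ERK, Myc was higher (1.06, edgeR adjusted p = 0.0151) and Etv1 lower (-0.95, edgeR adjusted p = 0.0496). Of 6 genes of the p38, MK2 and tristetraprolin axis, Mapkapk2, which encodes the kinase MK2 below p38, was higher (660.4 ± 38.9 CPM, against 351.4 ± 33.1 CPM in IFNa; 0.91, edgeR adjusted p = 0.00197). Of 6 cytokine genes that Dusp1 restrains in mouse macrophages, the chemokine genes Ccl3 (-2.98, edgeR adjusted p = 0.000686) and Ccl4 (-2.37, edgeR adjusted p = 0.00257) were lower and 0 were higher.

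In the mixture against unstimulated cells these lists moved more, as did the genes at large (15.7% called higher and 16.4% lower). Dusp7, a cytoplasmic ERK phosphatase, fell (9.44 ± 1.25 CPM, against 28.7 ± 5.54 CPM in unstimulated cells; -1.60, edgeR adjusted p = 2.49e-05). Among 10 atypical members Dusp28 (2.69) and Dusp11 (0.68) rose, and Dusp3 (-1.22) and Styx (-0.75) fell. Of the 27 kinases 5 rose and 5 fell, with Mapk11 (1.62) and Map2k1 (1.45) among the higher and Map2k6, an activator of p38, the furthest below (-2.52, edgeR adjusted p = 0.00135). Of 15 genes that respond to ERK 4 rose, Ccnd1 (1.87), Spred1 (1.61), Phlda1 (1.52) and Ier3 (1.48), and Etv5 fell (-1.18). Zfp36, which encodes the mRNA-destabilising protein tristetraprolin, rose (446.7 ± 66.1 CPM, against 113.1 ± 19.0 CPM in unstimulated cells; 1.98, edgeR adjusted p = 6.15e-07), as did Mapkapk2 (1.36), while Mapkapk3 fell (-1.39). All 6 cytokine genes rose (median 4.28). Tnf reached 162.8 ± 69.4 CPM in the mixture, against 5.51 ± 0.801 CPM in unstimulated cells (4.88, edgeR adjusted p = 3.55e-05). Il6 had 205 reads in the mixture and 0 in unstimulated cells, at least 81.9-fold higher by the same floor, and Il10 had 29 and 0 reads, at least 11.6-fold higher.

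The adult comparison asked how these genes differ between microglia of lupus-prone MRL/lpr mice and of MRL/MpJ mice. In adult cells Dusp6 stood far above every neonatal library. It had 631, 552 and 461 CPM in MRL/lpr, against 877, 588 and 707 CPM in MRL/MpJ, and 77.4% and 85.6% of the members' sum per kb. The groups overlapped, and the fall (-0.40 ± 0.152, edgeR adjusted p = 0.0476) had the highest adjusted p of 3 calls among the 7 members (median 0.38, against 0.01 over all genes tested), where 24.1% of all 13799 genes tested were called higher and 21.6% lower. The members were thus called about as often as genes at large. The fall of Dusp6 was lost without MRL/MpJ replicate 1 (-0.24, adjusted p = 0.227), MRL/MpJ replicate 3 (0.086), MRL/lpr replicate 2 (0.0775) or MRL/lpr replicate 3 (0.186). With library totals in place of TMM, which moved the median of all genes from 0.01 to 0.27, it was -0.14 (adjusted p = 0.461).

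Dusp1 and Dusp2 were higher in MRL/lpr microglia. Dusp1 had 125, 126 and 141 CPM in MRL/lpr, against 110, 84.9 and 105 CPM in MRL/MpJ (0.38 ± 0.117, edgeR adjusted p = 0.0188). Dusp2 had 4.37, 4.098 and 4.97 CPM in MRL/lpr, against 1.78, 1.77 and 2.39 CPM in MRL/MpJ (1.17 ± 0.357, edgeR adjusted p = 0.0184). The groups did not overlap in either gene. Without MRL/lpr replicate 3 all 3 calls were lost (0.0683 for Dusp1 and 0.0881 for Dusp2). Dusp1 was also lost without MRL/MpJ replicate 2 (0.063) and in a fit of all 24 libraries (0.32, adjusted p = 0.177), and Dusp2 without MRL/lpr replicate 1 (0.0661). Ergic1, which overlaps the far end of Dusp1, was lower in MRL/lpr (75.7 ± 1.90 CPM, against 145.7 ± 6.28 CPM in MRL/MpJ; -0.94, edgeR adjusted p = 1.56e-05). Immediate-early and heat shock genes that tissue dissociation induces moved beside these genes. Of 15 such genes 11 were higher in MRL/lpr and 0 lower, their sum being 3650 to 3940 CPM in MRL/lpr and 1810 to 2020 CPM in MRL/MpJ. T and NK cell markers summed to 38.5 to 43.6 CPM in MRL/lpr and 6.74 to 18.4 CPM in MRL/MpJ (4 of 8 higher). Monocyte markers, which CD11b selection would also keep, summed to 49.6 to 139 CPM in MRL/lpr and 48.2 to 67.3 CPM in MRL/MpJ (2 of 5 higher). Neutrophil markers summed to 253 to 293 CPM in MRL/lpr and 226 to 591 CPM in MRL/MpJ (1 of 6 lower). B cell markers summed to 13.4 to 16.7 CPM in MRL/lpr and 26.7 to 32.4 CPM in MRL/MpJ (1 of 2 tested lower). Oligodendrocyte markers summed to 138 to 222 CPM in MRL/lpr and 205 to 288 CPM in MRL/MpJ (3 of 5 lower), and mural and fibroblast markers to 51.1 to 55.9 CPM in MRL/lpr and 88.9 to 126 CPM in MRL/MpJ (2 of 5 lower). The 8 microglial markers summed to 35700 to 40000 CPM in MRL/lpr and 64200 to 67800 CPM in MRL/MpJ (6 of 8 lower), and the 7 border macrophage markers to 82.6 to 161 CPM in MRL/lpr and 289 to 350 CPM in MRL/MpJ (6 of 7 lower). Their part in the result was not tested.

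The other 4 members did not pass in the adult cells. Dusp5 had 5.72, 2.98 and 7.59 CPM in MRL/lpr, against 4.51, 1.85 and 1.57 CPM in MRL/MpJ (1.03 ± 0.472, edgeR adjusted p = 0.0942). It passed without MRL/MpJ replicate 1, its highest library there (1.66, adjusted p = 0.0216), or without MRL/lpr replicate 2 (1.35, adjusted p = 0.0299). It also passed with all 24 libraries in a fit (adjusted p = 0.049), with library totals (0.0434) and with no filter beyond 1 read (0.0217). Dusp4 was nearly silent, with 12, 17 and 4 reads in the MRL/lpr libraries and 1, 2 and 10 reads in the MRL/MpJ libraries, so that a difference was not detectable at this depth (0.93 ± 0.925, edgeR adjusted p = 0.441). Neonatal Dusp4 stood at 7.42 CPM or more in all libraries. Dusp10 had 2.24, 4.21 and 2.41 CPM in MRL/lpr, against 3.77, 3.46 and 3.42 CPM in MRL/MpJ (-0.27 ± 0.381, edgeR adjusted p = 0.601). Its libraries of unstimulated neonatal cells, given above, lay between 1.69 and 3.099 CPM. Dusp16 had 39.95, 41.1 and 40.5 CPM in MRL/lpr, against 50.1, 31.4 and 37.4 CPM in MRL/MpJ (0.03 ± 0.159, edgeR adjusted p = 0.89).

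Of the pathway lists in the adult cells, 14 of 27 kinases were called, 9 higher and 5 lower (median 0.18), where 24.1% of all genes were called higher and 21.6% lower, as given above. Map3k14, which encodes the NF-kappaB-inducing kinase NIK, had the largest of these rises (56.6 ± 8.23 CPM in MRL/lpr, against 14.9 ± 0.785 CPM in MRL/MpJ; 1.93, edgeR adjusted p = 1.57e-06). Map3k8 (1.45), the kinase TPL2 that activates ERK downstream of Toll-like receptors, and Map2k7 (1.22), an activator of JNK, also rose. Of 14 genes that respond to ERK, Etv4 (1.97) and Ier3 (1.67) were higher and 3 were lower, Etv5 (-0.53) among them. Zfp36 rose (1.55, edgeR adjusted p = 7.33e-07) and Mapkapk5 rose (2.69, edgeR adjusted p = 0.00892), while Mapkapk2 fell (-0.47, edgeR adjusted p = 0.00222). Mapkapk5 had 4.14 ± 0.293 CPM in MRL/lpr and was near the floor in MRL/MpJ (0.624 ± 0.629 CPM), so the size of its rise is uncertain. All 5 tested cytokine genes of the Dusp1 list were higher (median 2.44), among them Ccl3 (83.9 ± 1.23 CPM in MRL/lpr, against 7.70 ± 1.27 CPM in MRL/MpJ; 3.45, edgeR adjusted p = 3.99e-08), Cxcl2 (4.79) and Tnf (2.44). Cxcl2 was also near the floor in MRL/MpJ (0.130 ± 0.116 CPM, against 3.70 ± 0.892 CPM in MRL/lpr). Outside the 7 members, Dusp11 was higher (1.07) and Dusp7 (0.24, edgeR adjusted p = 0.225) and Dusp8 (0.14, edgeR adjusted p = 0.829) did not pass.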

How the data were processed

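RNA-seq libraries of 24 CD11b-selected mouse brain samples were analysed. The submitters' processing notes name cutadapt 2.1, STAR 2.7.1a and the mm10 build. The authors deposited unnormalised read counts for each gene, and a length column, per the file headers. Which program counted the reads, and whether by strand, is not given in the sources used. The 7 members were taken by gene name. Members and lists were chosen with earlier results of these data known.

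The deposited counts were filtered (filterByExpr), TMM-scaled and tested by the robust quasi-likelihood F test of edgeR 4.0.16 (R 4.3.3), with Benjamini-Hochberg adjustment over all genes tested and a threshold of 0.05. The 18 neonatal libraries (14626 genes, 12 residual degrees of freedom, biological coefficient of variation 0.397) and the 6 adult libraries (13799 genes, 4, 0.181) had a fit each. The SE of a log2 fold change is its size over the root of F. Named genes of a list are up to 3 called ones with the largest absolute change in IFNg against IFNa, the mixture against unstimulated cells and the adult comparison, and others named were chosen after their values were seen. Total counts were 10.08 to 19.32 M per library. Floors of 3 counts cover counting error only. Same-group libraries differed by more than sampling noise (24 pairs, lowest chi-square per degree of freedom 5.36).

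Replicate numbers are shared between groups in the labels, which do not say what they stand for. All 45 same-numbered neonatal pairs deviated together from their group means (r of 0.184 to 0.687), so the replicate number was taken to pair them. The tests reported have no term for it, and the fit with it as a block is an alternative. Of 3 adult pairs 2 were over 0.1. Counts were also simulated from a mean for each gene, with independent noise and no replicate effect. Changes of 2-fold or 4-fold were added to a small random part of the genes. Their recovery for IFNg against IFNa was 37.1% at 2-fold and 60.6% at 4-fold (14269 genes tested, 4% of calls false). In the adult comparison it was 67.3% and 88.8% (13404 genes tested, 6.13%). The neonatal libraries did deviate together by replicate number, so these percentages need not hold for the deposited counts. Alternatives were the replicate block, DESeq2 1.42.0, RLE factors or library totals in place of TMM, other filters, other sets of libraries in the fit and each replicate left out. The genes most like Dusp5 are not reported here.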

Additional observations from a re-analysis of the deposited data

How the results depend on the processing

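No called member change turned its sign under any alternative run. Of the IFNg against IFNa calls, those of Dusp1, Dusp4 and Dusp6 remained in 13 of 13 settings and that of Dusp10 in 9. The number of members called was 4 with all libraries and within 1.5 times of that in every setting for IFNg against IFNa. It went to 2 with the replicate block for IL6 (0 without), to 2 without TNFa replicate 2 for the mixture against TNFa (4 with it), and to 0 without MRL/lpr replicate 3 in the adult cells (3 with it). Of all genes tested, 2837 were called without TNFa replicate 2 (3684 with it) and 4739 without MRL/lpr replicate 3 (6310 with it). Against the sum of the single cytokines 1 member was called, and 3 with DESeq2, 3 with the replicate block, 2 with no filter, 2 with library totals and 0 to 2 with a replicate left out. Over all genes tested, 245 were called there, 469 with DESeq2 and 960 with the replicate block. The number was 217 with no filter, 307 with library totals and 76 to 300 with a replicate left out. In the neonatal comparisons with unstimulated cells, of IFNg with IFNa and of the mixture with each cytokine or their sum, the replicate block changed no other call of a member than those given beside the results, and in the adult cells, whose numbers were not taken as pairs, it gave Dusp5 an adjusted p of 0.0464. It raised the number of all genes called to 2058 for IFNg against IFNa (756 without), and against unstimulated cells to 3468 for IFNg (1886), 3712 for IFNa (2118), 2542 for TNFa (1184) and 714 for IL6 (143). DESeq2 called 1164 genes for IFNg against IFNa and 331 for IL6. Library totals in place of TMM moved the median of all genes by over 0.1 in the adult comparison, in the mixture against unstimulated cells or a single cytokine, and in IFNg and IFNa against unstimulated cells. The calls were then 996 higher and 1211 lower for IFNg against unstimulated cells (1254 and 632 with TMM), 1190 and 1560 for IFNa (1377 and 741), 1547 and 4993 for the mixture (2289 and 2398) and 4783 and 1439 in the adult cells (3328 and 2982). For the mixture they were 735 and 2769 against IFNg (944 and 1145 with TMM) and 1401 higher against IL6 (2018 with TMM), those against IFNa and TNFa standing beside their results. The causes of these changes were not tested. Depth limits Dusp4 in adult cells and Dusp2 and Dusp10 in unstimulated ones.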
